A study of Mus musculus with 16 samples.

Results

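The genes described here encode the receptors and adhesion molecules that set where a neutrophil goes. They are the chemokine receptors Cxcr2 and Cxcr4, the complement receptor C5ar1, the formyl peptide receptors Fpr1 and Fpr2, the integrin subunits Itgam and Itgb2, the integrin ligand Icam1 and the selectin ligand Selplg. They were taken by symbol from a table of 10296 lines, and all 9 genes were found, on 10 lines, because the symbol Itgam stood on 2 of them.

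Neutrophils carrying surface Ly6G were sorted from C57BL/6 mice with CD45, CD11b, Ly6G and DAPI staining, and RNA-seq libraries were made from amplified cDNA. The mice were germ-free (GF, without microorganisms) or specific pathogen free (SPF, with a microbiota), and no other genotype or treatment is given. Lung and spleen each gave 3 GF and 3 SPF libraries, and blood gave 2 GF and 2 SPF libraries. Whether those of a group came from separate mice is not stated in the labels, so each p-value reflects library-to-library variation that could be technical only.

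A neutrophil leaves the marrow when signalling through CXCR2 outweighs retention by CXCR4, which binds the stromal chemokine CXCL12. In tissue it follows end-point attractants, the complement fragment C5a through C5AR1 and bacterial or mitochondrial formyl peptides through FPR1 and FPR2. PSGL-1, the product of Selplg, lets the cell roll on selectins. The integrin Mac-1, a pair of CD11b (Itgam) and CD18 (Itgb2), then holds it to ICAM-1 on endothelium, and ICAM-1 can also be made by neutrophils themselves. CD11b protein was stained for the sort, so the cells taken may have been selected on it.

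The promoters of the 3 genes that differed most between lung and the other tissues are shown. Icam1 and Cxcr4 were higher in lung and Cxcr2 was lower. Each window is the 250 bases before the RefSeq start (GRCm38.p6) on the gene's own strand, with any match to a searched motif in capitals.
Icam1, chr9:21015690-21015939, plus strand: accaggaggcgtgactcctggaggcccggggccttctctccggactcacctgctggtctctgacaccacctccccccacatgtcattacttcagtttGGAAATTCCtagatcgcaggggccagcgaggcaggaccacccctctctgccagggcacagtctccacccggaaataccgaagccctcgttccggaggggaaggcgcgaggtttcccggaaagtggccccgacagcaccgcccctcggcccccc
Cxcr4, chr1:128592300-128592549, minus strand: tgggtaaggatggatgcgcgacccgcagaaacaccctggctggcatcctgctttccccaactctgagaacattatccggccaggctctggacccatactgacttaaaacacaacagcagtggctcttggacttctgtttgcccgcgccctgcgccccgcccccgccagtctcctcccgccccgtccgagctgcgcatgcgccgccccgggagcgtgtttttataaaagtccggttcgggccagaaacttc
Cxcr2, chr1:74153744-74153993, plus strand: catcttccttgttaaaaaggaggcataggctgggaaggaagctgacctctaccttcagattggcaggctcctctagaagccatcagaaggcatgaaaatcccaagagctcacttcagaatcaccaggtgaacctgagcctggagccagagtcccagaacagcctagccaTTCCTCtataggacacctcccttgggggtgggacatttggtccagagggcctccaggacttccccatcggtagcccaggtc
Of the 9 genes 7 had such a window. Searched on both strands were CACGTG (E-box), ACGTG (hypoxia response core, which overlaps the E-box), GGANNTTCC (an NF-kB form), GAGGAA (PU.1 core) and TGACTCA (AP-1). The Icam1 window held GGAAATTCC, an NF-kB form, starting 153 bases before the start, a motif found in 3.6% of 32851 promoter windows of the same length. The Cxcr2 window held the PU.1 core on the opposite strand, 81 bases before the start, and 23.3% of all windows held that core. The Cxcr4 window held none of these letters. Among the windows not shown, Itgam had 2 PU.1 cores and Fpr2 had 1. A match describes the letters only.

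A level below is a normalised count, which is what remains of the deposited value once an offset worth 0.5 reads is taken off. A log2 difference was taken on log2(value + 1) of the deposited value, which still holds that offset. The offset ran from 0.196 in SPF blood replicate 4 to 3.81 in SPF spleen replicate 1. For low genes the log2 difference can therefore be smaller or larger than the true change. Depth differed between tissues, with a median of 856319 reads recovered per library in lung, 199487 in spleen and 2712907 in blood, and a range of 104213 to 3033941. In each library all 14 neutrophil markers had reads, but other cells left RNA too. The neutrophil markers summed to 43850 to 65920 in lung, 43620 to 83070 in spleen and 57290 to 94650 in blood. Between lung and blood 3 of the 14 were higher and 5 lower in lung, where 16.5% of all genes tested were higher and 8.11% lower. Their median log2 difference was -0.70 against 0.15 over all genes, so the markers went both ways. The summed level of 17 lung epithelial, endothelial and stromal markers (of 26 listed) was 3439 to 12380 in lung, 28.2 to 71.0 in spleen and 40.0 to 68.2 in blood. That of 11 erythroid and platelet markers (of 16 listed) was 48.7 to 2087 in lung, 48.1 to 22000 in spleen, where only GF replicate 1 was high, and 44340 to 99580 in blood. B cell markers (12 of 14 listed) summed to 857 to 1084 in lung, 593 to 935 in spleen and 528 to 753 in blood. Immediate early genes (19 of 21 listed), which respond within minutes to stimulation or handling, summed to 27530 to 37250 in lung, 4390 to 11100 in spleen and 6501 to 12560 in blood. Macrophage and monocyte markers (16 of 24 listed) summed to 1398 to 1555 in lung, 1895 to 2252 in spleen and 1541 to 2250 in blood. The leading genes of that sum, Csf1r (mean 812) and Cd68 (mean 340), had reads in every library. Its order of tissues therefore need not be that of the scarcer markers on the list. The part of all these marker groups in the results below was not tested, except where a value is given. In bulk libraries fewer cells of a type and less RNA per cell cannot be told apart.

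**Figure D1:**
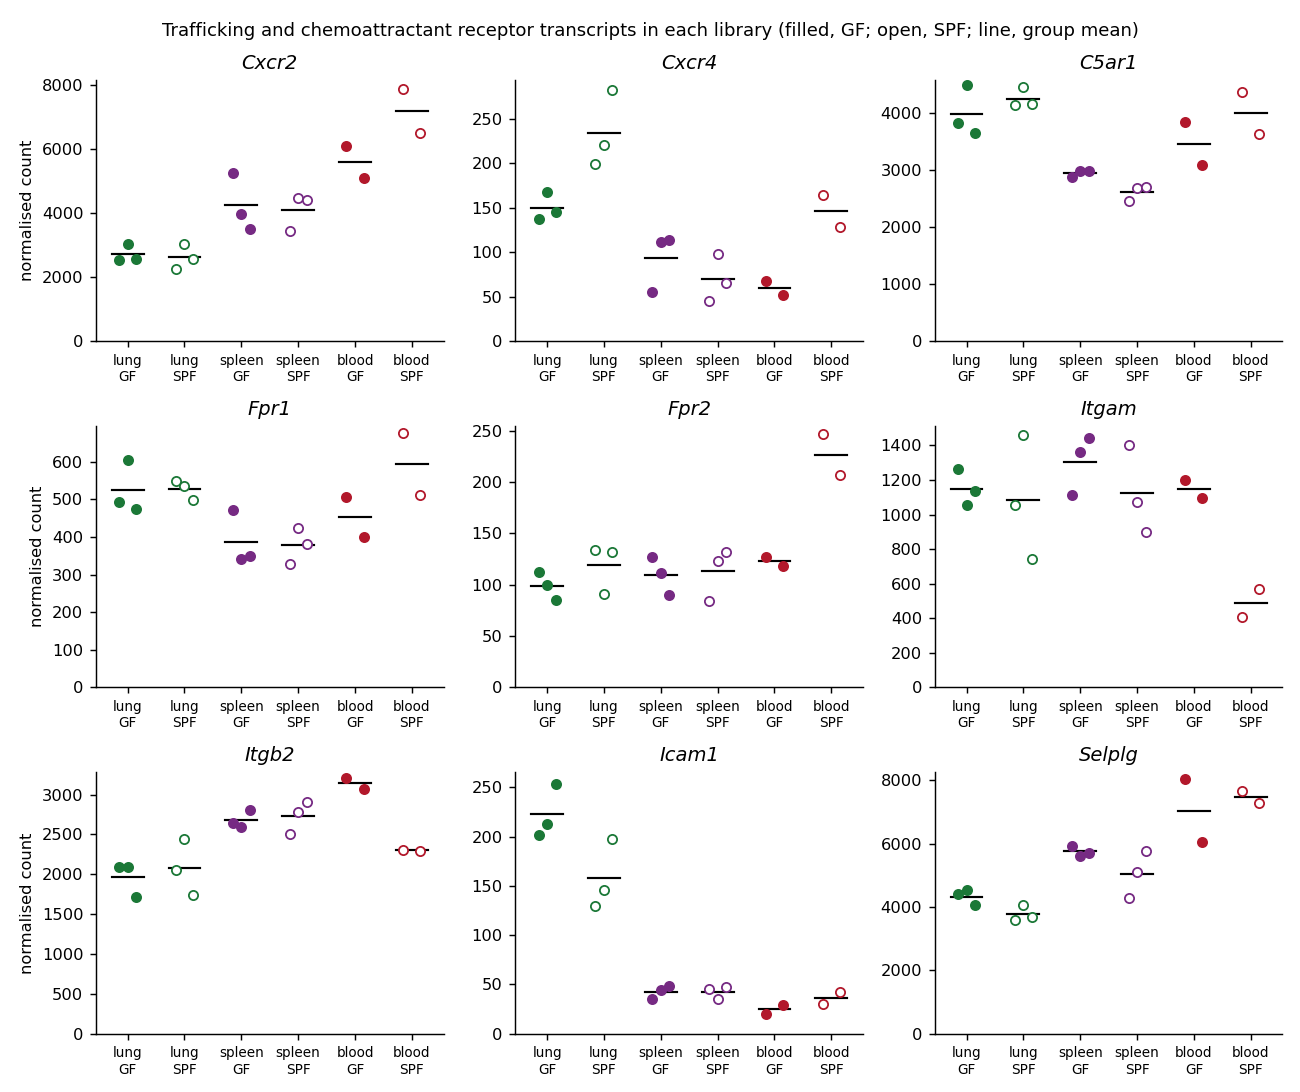
Normalised count of the 9 genes (vertical axes, each from 0) in every library, by tissue and microbial status. Filled points are GF libraries, open points SPF libraries and lines group means. Icam1 lay between 130 and 254 in lung and between 19.6 and 48.1 elsewhere, and Cxcr2 lay between 2251 and 3049 in lung and between 3437 and 7877 elsewhere.

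Averaged over GF and SPF, 7 of the 9 genes differed between lung and blood, 3 higher and 4 lower in lung. Among all 8299 genes tested 24.6% were called in this comparison, 16.5% higher and 8.11% lower. Icam1, Cxcr4 and Itgam were higher in lung, and Cxcr2, Selplg, Fpr2 and Itgb2 were lower. Between lung and spleen 7 genes differed as well, against 17.3% of all genes. Icam1, Cxcr4, C5ar1 and Fpr1 were higher in lung, as were 12.5% of all genes, and Cxcr2, Itgb2 and Selplg were lower, as were 4.75%. Between spleen and blood 4 differed, against 5.74% of all genes (2.61% higher and 3.12% lower). Itgam was higher in spleen, and Cxcr2, Selplg and C5ar1 were lower in spleen as deposited but at 0.03, 0.24 and 0.03 in log2 difference after quantile normalization. All tests are limma's on all 16 libraries with Benjamini-Hochberg adjustment over all genes of a comparison, called at an adjusted p under 0.05. The comparisons of lung and of spleen with blood share the blood libraries, and those of lung with blood and with spleen share the lung libraries. The median log2 difference of all genes between lung and blood was 0.15 as deposited and -0.10 after quantile normalization. Relative to that median, Cxcr2 stood at -1.40 and -0.65, Icam1 at 2.43 and 2.55, and Cxcr4 at 0.82 and 1.03. Selplg moved from -0.98 to -0.14 and Itgb2 from -0.57 to -0.08, so little was left of their lower level in lung. C5ar1 moved from 0.0035 to 0.67 and Fpr1 from -0.12 to 0.20. Fpr2 stood at -0.78 and -0.53, and Itgam at 0.41 and 0.78.

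**Figure D2:**
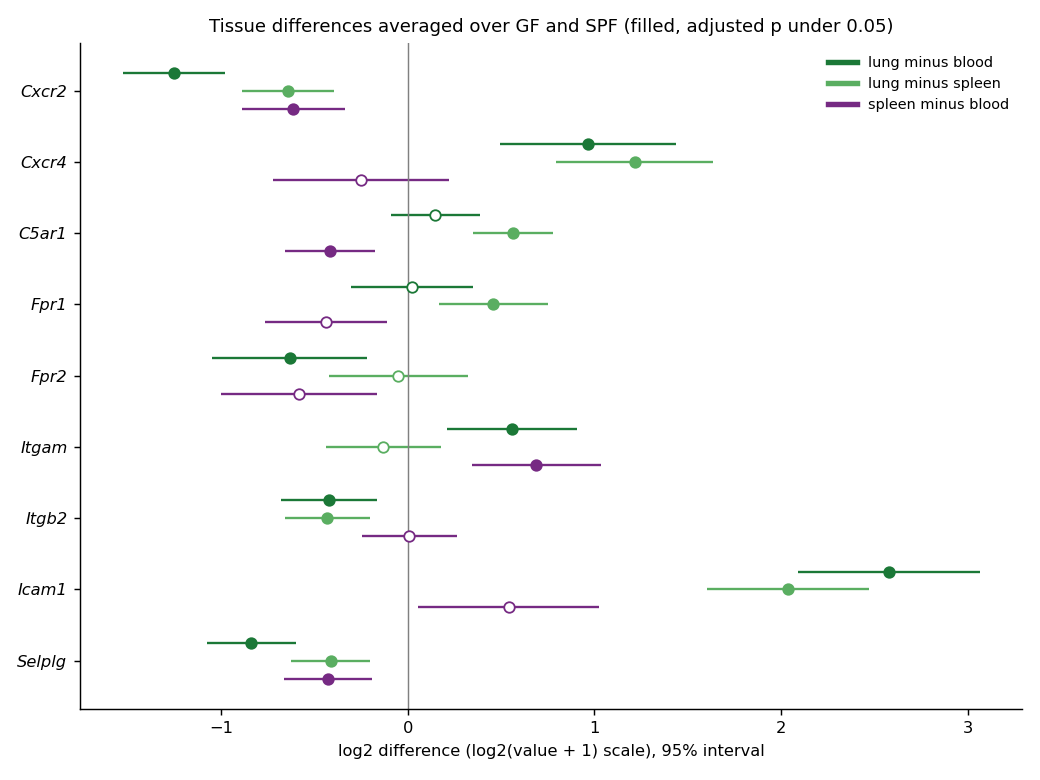
Log2 difference (horizontal axis, log2(value + 1) scale) between tissues, averaged over GF and SPF, with 95% intervals from the limma fit; filled points have an adjusted p under 0.05. Cxcr2 and Selplg lay below 0 and Icam1 and Cxcr4 above 0 in both comparisons of lung, while the values of Cxcr2, Selplg and C5ar1 for spleen minus blood, all below 0 here, were 0.03, 0.24 and 0.03 after quantile normalization.

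Cxcr2 (ENSMUSG00000026180, chromosome 1, 74153989 to 74161246, plus strand, GRCm38) encodes the receptor for CXCL1 and CXCL2. Its normalised counts were 2521, 3024 and 2579 in GF lung and 2251, 3049 and 2569 in SPF lung. Spleen had 5254, 3982 and 3496 in GF mice and 3437, 4467 and 4399 in SPF mice. Blood had 6081 and 5091 in GF mice and 7877 and 6484 in SPF mice. Every lung library lay below every spleen and blood library, while spleen and blood overlapped only through GF spleen replicate 1. The level in lung was 0.42-fold that in blood (log2 difference -1.25, SE 0.13, 95% interval -1.52 to -0.98, adjusted p = 1.4e-08) and 0.64-fold that in spleen (-0.64, SE 0.12, adjusted p = 0.00017). Both calls held under all 30 alternatives. The difference between spleen and blood (-0.61, SE 0.13, adjusted p = 0.00613) was lost without SPF blood replicate 3 (-0.54, adjusted p = 0.0721) and was 0.03 after quantile normalization, in a range of adjusted p from 0.000657 to 0.9.

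Cxcr4 (ENSMUSG00000045382, chromosome 1, 128588199 to 128592293, minus strand) was far less abundant. It had 138, 167 and 145 normalised counts in GF lung and 199, 221 and 282 in SPF lung. In spleen it had 55.8, 111 and 114 in GF mice and 45.7, 98.3 and 65.9 in SPF mice. In blood it had 68.2 and 51.9 in GF mice and 165 and 129 in SPF mice. All lung libraries exceeded all spleen libraries, and within each microbial status all lung libraries exceeded all blood libraries, but SPF blood overlapped GF lung. Lung was 1.96-fold above blood (log2 difference 0.97, SE 0.23, adjusted p = 0.00198) and 2.32-fold above spleen (1.22, SE 0.21, adjusted p = 3.99e-05), and both calls held under all 30 alternatives. The shallow spleen and GF blood libraries held as few as 6 and 7 reads of Cxcr4.

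The balance of both receptors in a library was taken as Cxcr4 per 100 Cxcr2, a ratio chosen after the values were seen and given without a test. It ran from 5.46 to 10.99 in lung (median 6.43), from 1.06 to 3.26 in spleen (median 1.85) and from 1.02 to 2.09 in blood (median 1.56). The lung libraries stood apart from all others. Within lung the GF libraries were at 5.46, 5.53 and 5.62 and the SPF libraries at 8.84, 7.24 and 10.99. Within blood the GF libraries were at 1.12 and 1.02 and the SPF libraries at 2.09 and 1.99. The summed lung cell markers and immediate early genes were also highest in the 6 lung libraries, and their part in the ratio was not tested.

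**Figure D3:**
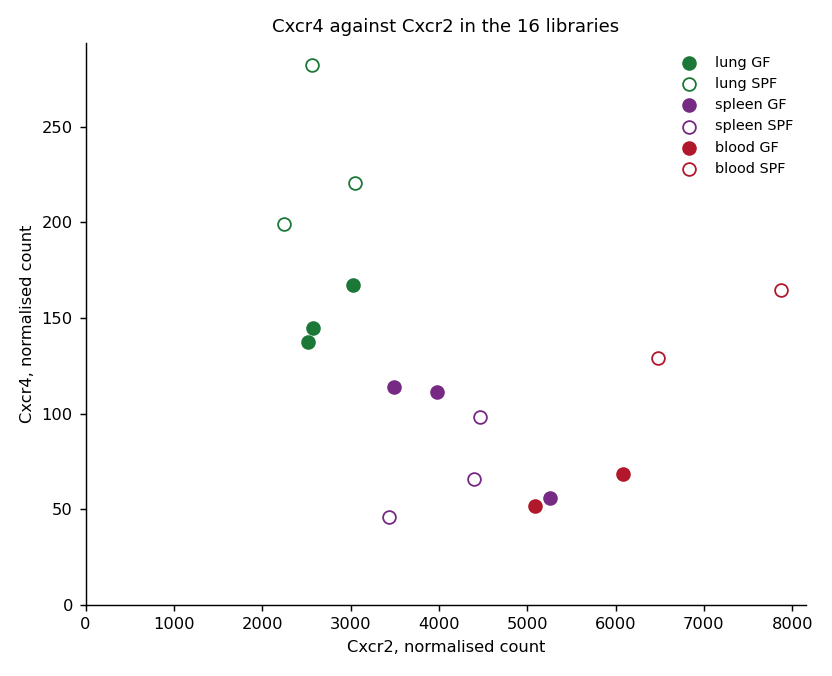
Normalised count of Cxcr4 (vertical axis) against Cxcr2 (horizontal axis) in the 16 libraries, coloured by tissue, filled for GF and open for SPF. The 6 lung libraries lie at the upper left, with Cxcr2 between 2251 and 3049 and Cxcr4 between 138 and 282, and the SPF blood libraries at the right, with Cxcr2 at 7877 and 6484.

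C5ar1 (ENSMUSG00000049130, chromosome 7, 16246743 to 16259540, minus strand) was the most abundant of the 3 receptors for end-point attractants. Lung had 3811, 4475 and 3645 normalised counts in GF mice and 4125, 4449 and 4154 in SPF mice. Spleen had 2879, 2973 and 2975 in GF mice and 2460, 2682 and 2698 in SPF mice. Blood had 3834 and 3081 in GF mice and 4361 and 3618 in SPF mice. Spleen lay below every lung and blood library, and lung and blood overlapped. The level in lung was 1.48-fold that in spleen (log2 difference 0.56, SE 0.11, adjusted p = 0.000157), a call kept under all 30 alternatives. Lung and blood did not differ past the threshold (0.15, 95% interval -0.09 to 0.39, adjusted p = 0.388), but after quantile normalization lung was called higher (0.57, adjusted p = 5.7e-05, in a range of 5.7e-05 to 0.941).

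Fpr1 and Fpr2 lie side by side on chromosome 17, at 17876471 to 17883940 on the minus strand (ENSMUSG00000045551) and at 17887824 to 17893952 on the plus strand (ENSMUSG00000052270). FPR1 is the high-affinity receptor for bacterial formyl peptides, and FPR2 binds a wider range of peptides and lipids. The normalised counts of Fpr1 were 494, 605 and 474 in GF lung and 548, 534 and 498 in SPF lung. They were 472, 341 and 348 in GF spleen, 328, 423 and 381 in SPF spleen, 506 and 400 in GF blood, and 677 and 511 in SPF blood. Fpr1 was 1.38-fold higher in lung than in spleen (log2 difference 0.46, SE 0.14, adjusted p = 0.0233), with no overlap, though the gap between the nearest libraries, 474 in lung and 472 in spleen, was small. That call was lost in 9 of 30 alternatives, among them those without GF lung replicate 3 (adjusted p = 0.0833), SPF lung replicate 1 (0.0531), GF spleen replicate 3 (0.0671) and GF spleen replicate 4 (0.0517), in a range of 0.00879 to 0.116.

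Fpr2 had a different pattern. Its levels were 85.5 to 112 in GF lung, 134, 90.9 and 132 in SPF lung, 127, 111 and 90.1 in GF spleen, and 83.8, 124 and 132 in SPF spleen. Blood had 127 and 119 in GF mice and 247 and 207 in SPF mice, so SPF blood stood above all other libraries, which overlapped among themselves. In SPF mice Fpr2 was lower in lung than in blood (log2 difference -0.93, SE 0.29, adjusted p = 0.0208) and lower in spleen than in blood (-0.99, SE 0.29, adjusted p = 0.0333). Averaged over GF and SPF the lung minus blood difference was -0.63 (SE 0.20, adjusted p = 0.022). This average was lost without GF lung replicate 4 (adjusted p = 0.0579), SPF lung replicate 2 (0.0685), GF blood replicate 2 (0.0585) or SPF blood replicate 3 (0.111), in a range of 0.00272 to 0.165. Of the 61-base windows of Fpr2 transcripts 26.1% also occur in another annotated gene, so part of its reads could be shared, while Fpr1, C5ar1 and Cxcr4 had none.

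Icam1 (ENSMUSG00000037405, chromosome 9, 21015985 to 21028817, plus strand) showed the largest difference of the 9 genes. It had 202, 212 and 254 normalised counts in GF lung and 130, 146 and 198 in SPF lung. Spleen had 35.5, 44.4 and 48.1 in GF mice and 45.7, 35.8 and 47.0 in SPF mice, and blood had 19.6 and 29.6 in GF mice and 29.8 and 42.3 in SPF mice. The lowest lung library exceeded the highest of the others, whereas spleen and blood overlapped. Lung was 5.97-fold above blood (log2 difference 2.58, SE 0.24, 95% interval 2.09 to 3.06, adjusted p = 6.76e-10) and 4.10-fold above spleen (2.04, SE 0.21, adjusted p = 8.02e-09), under all 30 alternatives. These rest on 66 to 240 reads in lung, 6 to 24 in spleen and 4 to 108 in blood. Spleen minus blood was 0.54 (95% interval 0.06 to 1.03, adjusted p = 0.18).

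Icam1 is also made by lung endothelium and epithelium. The summed lung cell markers were higher in every lung library than in any spleen or blood library. Several of these markers had almost no reads outside lung and reached the filter only through lung, so their calls are not counted here. The endothelial marker Cldn5 had 69.0 to 231 normalised counts in lung and 0 reads in all 6 spleen and 3 of 4 blood libraries. Within lung, Icam1 measured 130 in the library with the lowest marker sum (SPF replicate 1, 3439), 146 at a sum of 4885, 202 at 5596, 198 at 6766, 254 at 12095 and 212 at 12382. Both values were lowest in the same library and high in the same pair of libraries. Outside lung the marker sums were 28.2 to 71.0 and Icam1 was at 19.6 to 48.1. The part of lung cell RNA in the Icam1 level was not tested. In these bulk libraries more of another cell's RNA and more Icam1 RNA per neutrophil cannot be told apart. Of the 61-base windows of Icam1 transcripts 12.3% occur in another gene, mostly the overlapping Gm47079, and no strand-aware counting is stated.

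**Figure D4:**
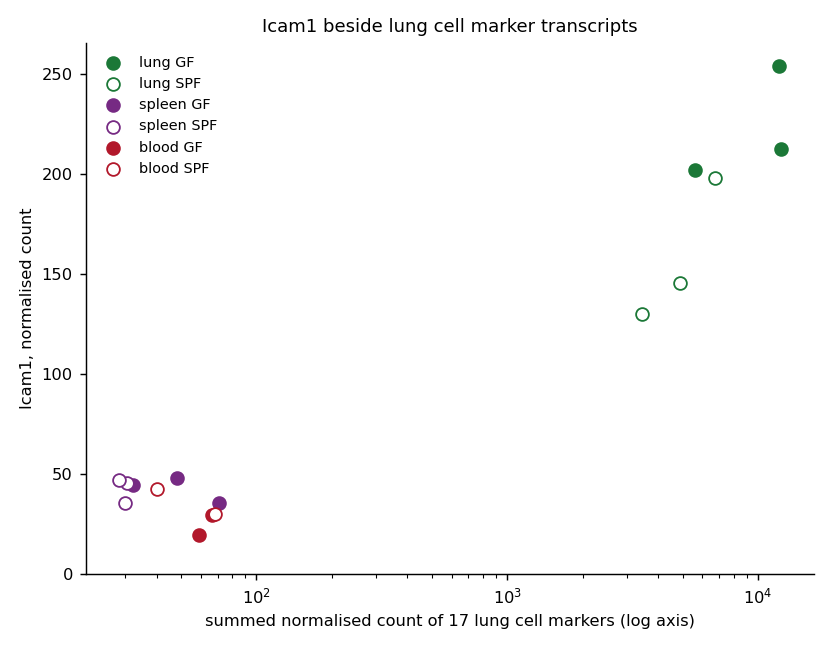
Normalised count of Icam1 (vertical axis) against the summed normalised count of 17 lung epithelial, endothelial and stromal markers (horizontal log axis) in the 16 libraries, coloured by tissue, filled for GF and open for SPF. The lung libraries lie at marker sums of 3439 to 12380 with Icam1 at 130 to 254, and the others at sums of 28.2 to 71.0 with Icam1 at 19.6 to 48.1.

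Of the Mac-1 subunits, Itgb2 (ENSMUSG00000000290, chromosome 10, 77530252 to 77565708, plus strand), the beta chain shared by all leukocyte beta-2 integrins, had 2091, 2095 and 1713 normalised counts in GF lung and 2050, 2441 and 1745 in SPF lung. Spleen had 2648, 2595 and 2812 in GF mice and 2500, 2787 and 2908 in SPF mice. Blood had 3206 and 3074 in GF mice and 2308 and 2291 in SPF mice. Lung lay below spleen without overlap (0.74-fold, log2 difference -0.43, SE 0.11, adjusted p = 0.00589), and below GF blood, while SPF blood fell inside the lung range. The call against spleen was lost without the libraries under 250000 reads (adjusted p = 0.0639) and with neither a trended nor a robust prior (0.111). The averaged lung minus blood difference was -0.42 (SE 0.13, adjusted p = 0.0129), which quantile normalization took to -0.18 (adjusted p = 0.25, in a range of 0.00115 to 0.25). That call was also lost with neither a trended nor a robust prior (0.133) and with a replicate block within GF or SPF (0.053).

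Itgam (ENSMUSG00000030786, chromosome 7, 128062640 to 128118491, plus strand) had 1263, 1053 and 1135 normalised counts in GF lung and 1057, 1460 and 743 in SPF lung. Spleen had 1115, 1359 and 1440 in GF mice and 1400, 1072 and 899 in SPF mice. Blood had 1200 and 1099 in GF mice and 406 and 569 in SPF mice. Both SPF blood libraries were below each of the other 14 libraries, which overlapped. In SPF mice Itgam was 2.18-fold higher in lung than in blood (log2 difference 1.12, SE 0.24, adjusted p = 0.000986) and 2.30-fold higher in spleen than in blood (95% interval 0.71 to 1.69 in log2 difference, adjusted p = 0.0023). In GF mice the same differences were -0.003 (95% interval -0.49 to 0.49) and 0.18 (-0.31 to 0.67), with adjusted p of 0.997 and 0.814. The averaged differences, 0.56 for lung minus blood (adjusted p = 0.0144) and 0.69 for spleen minus blood (adjusted p = 0.0136), were both lost without SPF blood replicate 3 (adjusted p = 0.123 and 0.147) and without GF blood replicate 3 (0.0573 and 0.0526). The first was also lost without SPF lung replicate 2 (0.0564) and with TMM rescaling (0.0759). Their ranges were 0.00291 to 0.123 and 0.00172 to 0.17.

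The second line under the symbol Itgam, ENSMUSG00000108596, is named Gm49368 in GENCODE M21 and overlaps Itgam, sharing 3450 exonic bases, which are 68.7% of those of Itgam and 71.8% of its own. Reads in the shared exons could have been divided between both lines, and this line held 3.6% to 15.7% of their sum in a library. Its own normalised counts ran from 34.7 to 152 in lung, from 77.9 to 224 in spleen and from 35.0 to 205 in blood, and these ranges overlapped. In SPF mice the line was called higher in spleen than in blood (log2 difference 1.59, adjusted p = 0.032) and lower in lung than in spleen (-1.32, adjusted p = 0.036). With both lines added, the calls of Itgam were kept in the comparisons averaged over GF and SPF, with differences of 0.51 for lung minus blood (adjusted p = 0.0299) and 0.68 for spleen minus blood (adjusted p = 0.0174).

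Selplg (ENSMUSG00000048163, chromosome 5, 113818536 to 113832644, minus strand) had 4398, 4529 and 4063 normalised counts in GF lung and 3582, 4062 and 3695 in SPF lung. Spleen had 5934, 5621 and 5712 in GF mice and 4281, 5118 and 5771 in SPF mice, and blood had 8035 and 6052 in GF mice and 7661 and 7295 in SPF mice. Blood exceeded every other library, and lung and spleen overlapped only through SPF spleen replicate 1. The level in lung was 0.56-fold that in blood (log2 difference -0.84, SE 0.12, adjusted p = 1.46e-06), a call lost only after quantile normalization (-0.24, adjusted p = 0.0962, in a range of 4.3e-09 to 0.0962). It was 0.75-fold that in spleen (-0.41, SE 0.10, adjusted p = 0.00457), a call lost with neither a trended nor a robust prior (0.128). Spleen minus blood was -0.43 (SE 0.12, adjusted p = 0.0274), lost in 10 alternatives and 0.24 after quantile normalization, in a range of 0.0032 to 0.276. Libraries whose absence ended that call were GF spleen replicates 3 and 4, SPF spleen replicate 1, GF blood replicate 2, and SPF blood replicates 3 and 4. C5ar1 lost its spleen minus blood call (-0.41, adjusted p = 0.0334) without GF spleen replicates 3 or 4, GF blood replicate 2 or SPF blood replicate 3, in a range of 0.00727 to 0.899.

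Per kilobase of exon, the order of the genes shifted between tissues. In blood Cxcr2 was highest, at a mean normalised count per kilobase of 1830 ± 230 in GF and 2360 ± 323 in SPF (SD, n = 2 each), with Selplg at 1650 ± 328 and 1750 ± 60.6 and C5ar1 at 1350 ± 207 and 1550 ± 204. In GF blood the first and second of these lay within their SDs. In spleen Cxcr2 at 1390 ± 298 in GF and 1350 ± 189 in SPF and Selplg at 1350 ± 37.6 and 1180 ± 175 (SD, n = 3 each) overlapped, with C5ar1 at 1140 ± 21.3 and 1020 ± 51.7. In lung C5ar1 stood first, at 1550 ± 171 in GF and 1650 ± 69.7 in SPF, above Selplg at 1010 ± 56.2 and 885 ± 58.7 and Cxcr2 at 888 ± 90.3 and 860 ± 132. Icam1 and Cxcr4 were at 51.0 and 82.9 in GF lung, and at 36.2 and 129 in SPF lung.

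By microbial status, the tissue differences gave these counts. Lung minus blood was called for 5 of 9 genes in GF mice (background 9.8%, with 7.83% higher and 1.96% lower) and for 5 in SPF mice (19.1%, with 12.5% and 6.63%). Cxcr2 and Selplg were lower and Icam1 higher in both. In GF mice Cxcr4 was also higher and Itgb2 lower, and in SPF mice Itgam was higher and Fpr2 lower. Lung minus spleen was called for 2 genes in GF mice (10.2%, with 8.03% and 2.14%), Icam1 higher and Cxcr2 lower, and for 4 in SPF mice (9.66%, with 7.68% and 1.99%), Icam1, Cxcr4 and C5ar1 higher and Cxcr2 lower. Spleen minus blood was called for 0 in GF mice (0.88%, with 0.47% and 0.41%), where limma gave 2 genes an unadjusted p under 0.05, and the count was 0 under every alternative. It was called for 6 in SPF mice (7.06%, with 3.05% and 4.01%), Itgam higher, and Cxcr2, Cxcr4, Selplg, C5ar1 and Fpr2 lower. Without SPF blood replicate 3 that count was 0, without SPF blood replicate 4 it was 3 and without SPF spleen replicate 1 it was 2. Lung minus blood gave 3 calls without GF blood replicate 2 in GF mice and to 3 without SPF blood replicate 3 in SPF mice. Lung minus spleen in GF mice ranged from 1, without GF lung replicate 2, GF lung replicate 4 or GF spleen replicate 1, to 5 without SPF spleen replicate 1.

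Tested directly, the tissue differences of the 9 genes did not differ between GF and SPF mice past the threshold. The interaction called 0 genes for lung minus blood (background 0.012%), 0 for spleen minus blood (0.759%, with 0.41% higher and 0.349% lower) and 0 for lung minus spleen (0.012%). Limma gave an unadjusted p under 0.05 to 2, 2 and 1 of them. The smallest adjusted p were 0.307 (Itgam, -1.12, 95% interval -1.82 to -0.43), 0.0892 (Cxcr4, 1.62, 0.68 to 2.57) and 0.641 (Cxcr4, -1.02, -1.86 to -0.18). Without GF spleen replicate 1 the second count was 1.

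GF and SPF mice were compared within each tissue. In blood 1 of the 9 genes was called, against 1.33% of all genes tested (0.795% higher and 0.53% lower). Itgam was higher in GF blood, at 1200 and 1099 against 406 and 569 in SPF blood (1149 ± 71.6 against 487 ± 115, SD, n = 2 each). The log2 difference was 1.26 (SE 0.26, 95% interval 0.72 to 1.79, limma adjusted p = 0.0121). With both Itgam lines added it was 1.32 (adjusted p = 0.00969). The call was lost without GF blood replicate 3 (adjusted p = 0.105), without SPF blood replicate 3 (0.334) and with neither a trended nor a robust prior (0.23), in a range of 0.000826 to 0.334. The partner subunit Itgb2, at 3206 and 3074 in GF blood against 2308 and 2291 in SPF blood, differed by 0.45 (SE 0.19, adjusted p = 0.237, but 0.0446 with voom weights). The ratio of Itgam to Itgb2, chosen after the values were seen, was 0.374 and 0.357 in GF blood and 0.176 and 0.248 in SPF blood.

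Cxcr4 ran the other way in blood, at 68.2 and 51.9 in GF mice against 165 and 129 in SPF mice. Its log2 difference of -1.23 (SE 0.36, 95% interval -1.96 to -0.50, limma adjusted p = 0.0738) missed the threshold. It passed with a minimum value of 100 (adjusted p = 0.0331), array weights (0.0314), voom weights (0.0163), only the blood libraries (0.0101), and without GF spleen replicate 1 (0.0381) or SPF spleen replicate 1 (0.0254), in a range of 0.0101 to 0.539. GF blood replicate 3 held 7 reads of Cxcr4. Fpr2, at 127 and 119 in GF blood against 247 and 207 in SPF blood, differed by -0.85 (SE 0.32, adjusted p = 0.161, but 0.0319 with voom weights). The line Gm49368 had 105 and 205 in GF blood and 35.0 and 47.6 in SPF blood (1.83, SE 0.49, limma adjusted p = 0.0604). It passed with a minimum value of 100 (adjusted p = 0.033), array weights (0.0429), voom weights (0.013), only the blood libraries (7.76e-05), and without SPF lung replicate 2 (0.038), SPF spleen replicate 1 (0.0117) or GF blood replicate 2 (0.0308), in a range of 7.76e-05 to 0.62. Summed immediate early genes in blood were 9421 and 6501 in GF mice and 9663 and 12560 in SPF mice, and erythroid and platelet markers were 81960 and 99580 in GF mice and 44340 and 70470 in SPF mice. Their part in these differences was not tested.

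In spleen and in lung no gene of the 9 was called between GF and SPF mice, 0 of 9 in each, against 0.325% and 0.0241% of all genes (in spleen 0.253% higher and 0.0723% lower, in lung 0.012% each). Limma gave 0 and 1 of them an unadjusted p under 0.05, which was Cxcr4 in lung, with 138, 167 and 145 in GF mice against 199, 221 and 282 in SPF mice (-0.63, 95% interval -1.22 to -0.03, adjusted p = 0.999). In spleen Cxcr4 differed by 0.39 (-0.20 to 0.99), so its sign was not that of lung and blood. Icam1 in lung was at 202, 212 and 254 in GF mice against 130, 146 and 198 in SPF mice (0.51, -0.11 to 1.12, adjusted p = 0.999), beside lung cell marker sums of 5596, 12382 and 12095 in GF mice and 3439, 4885 and 6766 in SPF mice. For Cxcr2 the GF minus SPF differences were 0.05 in lung, 0.04 in spleen and -0.36 in blood (95% interval -0.79 to 0.06). Averaged over tissues Itgam was the only gene called (0.54, SE 0.13, adjusted p = 0.0345, background 1.39%, with 0.94% higher and 0.446% lower). This averaged call was lost in 15 of 30 alternatives, including removal of 11 of the 16 single libraries, with adjusted p from 0.00489 to 0.24. By tissue the Itgam difference was 1.26 in blood, 0.13 in lung (95% interval -0.31 to 0.57) and 0.23 in spleen (-0.21 to 0.67). The average therefore came mostly from blood.

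**Figure D5:**
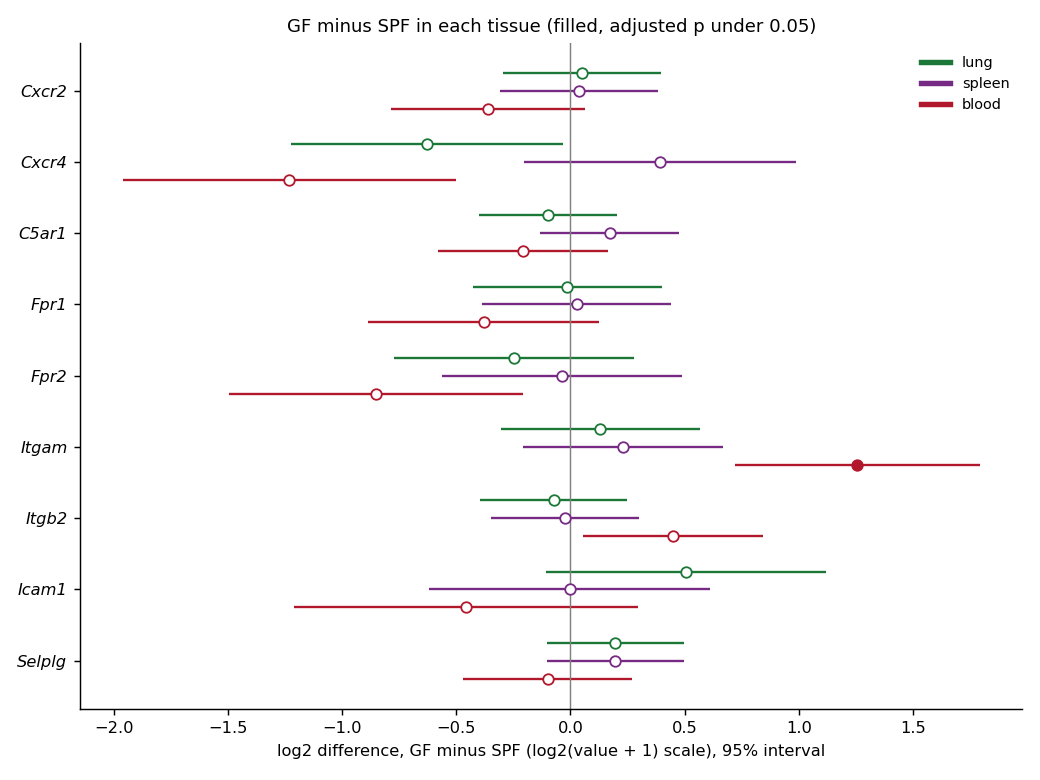
Log2 difference GF minus SPF (horizontal axis, log2(value + 1) scale) of the 9 genes in lung, spleen and blood, with 95% intervals from the limma fit; filled points have an adjusted p under 0.05. Itgam in blood, at 1.26, is the filled point, and Cxcr4 in blood lies at -1.23 with an adjusted p of 0.0738.

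Other genes of the trafficking pathways were counted from lists outside the 9 genes. Of all genes tested 24.6% were called between lung and blood, 17.3% between lung and spleen and 5.74% between spleen and blood, and the counts of each list stand beside these shares. Of 7 other chemokine receptors tested, 3 were higher and 1 lower in lung than in blood, and 3 were higher and 1 lower in lung than in spleen. For lung minus blood TMM rescaling gave 2 higher and 2 lower, and quantile normalization 3 higher and 2 lower. Their median log2 differences were 0.53 and 0.50, against 0.15 and 0.09 over all genes. After quantile normalization the lung minus blood median was 0.09, against -0.10 over all genes. Ccrl2, a non-signalling receptor that presents chemerin, averaged 1720 in GF lung and 2045 in SPF lung, 29.1 and 15.9 in GF and SPF spleen, and 24.0 and 55.5 in GF and SPF blood (lung minus blood 5.66, SE 0.45, adjusted p = 7.76e-07). Ccr1, a receptor for CCL3 and CCL5, was higher in lung than in spleen (0.76, adjusted p = 3.1e-05). Of 13 other chemoattractant receptors 5 were higher and 2 lower in lung than in blood. Hcar2, which binds hydroxybutyrate and niacin, averaged 685 and 766 in GF and SPF lung against 146 and 226 in GF and SPF blood (1.97, adjusted p = 1.45e-10). S1pr1, a sphingosine phosphate receptor that endothelium also expresses, averaged 246 and 116 in GF and SPF lung against 4.41 and 1.07 in GF and SPF blood. Ptger2, a prostaglandin E2 receptor, was lower in lung than in blood (-2.15, adjusted p = 6.05e-07) and than in spleen (-1.67, adjusted p = 6.82e-06).

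Genes that act downstream of the receptors were counted in the same way. Over all genes tested, 16.5% were higher and 8.11% lower in lung than in blood, and 12.5% were higher and 4.75% lower in lung than in spleen. Of 18 genes for G protein coupling and desensitisation 1 was higher and 3 were lower in lung than in blood, and 0 were higher and 5 lower in lung than in spleen. The medians of this list were -0.13 and -0.11, against 0.15 and 0.09 over all genes. After quantile normalization its lung minus blood median was -0.22, against -0.10 over all genes. Rgs2, which limits G protein signalling, averaged 433 and 380 in GF and SPF lung, 1217 and 1110 in GF and SPF spleen, and 1246 and 2283 in GF and SPF blood (lung minus blood -2.06, SE 0.15, adjusted p = 9.33e-12). Gnai2, the inhibitory G protein subunit to which chemokine receptors couple, averaged 1424 and 1670 in GF and SPF lung against 2826 and 3457 in GF and SPF blood (adjusted p = 1.59e-05). Of 32 genes for integrin activation and motility 1 was higher and 5 were lower in lung than in blood, and 0 were higher and 3 lower in lung than in spleen, with medians of -0.20 and -0.19, against 0.15 and 0.09 over all genes. After quantile normalization the lung minus blood median was -0.16, against -0.10 over all genes. TMM rescaling made the lung minus blood counts 1 higher and 9 lower. Rac2, a small GTPase of leukocytes that drives actin assembly, averaged 2249 and 2570 in GF and SPF lung, 3865 and 3889 in GF and SPF spleen, and 4393 and 7207 in GF and SPF blood (lung minus blood -1.22, SE 0.13, adjusted p = 1.12e-08). Coro1a, an actin-binding protein, was lower in lung than in blood (-0.80, adjusted p = 1.59e-05).

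Partners of Selplg and of Mac-1 were counted next. Of 16 selectin pathway genes 1 was higher and 2 were lower in lung than in blood, where 24.6% of all genes were called, and 2 were higher and 3 lower in lung than in spleen, where 17.3% were called. Adam8, a surface metalloprotease, was higher in lung than in blood (0.57, adjusted p = 0.00531). Of 20 other integrins and adhesion molecules 8 were higher and 2 lower in lung than in blood. Between spleen and blood 4 were higher and 1 lower in spleen, where 5.74% of all genes were called (2.61% higher and 3.12% lower). Between lung and spleen 6 were higher and 2 lower in lung, and quantile normalization gave 6 higher and 6 lower. With TMM rescaling the counts were 7 higher and 4 lower for lung minus blood and 3 higher and 3 lower for spleen minus blood. Plaur, the urokinase receptor and an integrin partner, averaged 1672 and 2019 in GF and SPF lung against 420 and 747 in GF and SPF blood (1.72, adjusted p = 4.49e-08). Pecam1 (3.67 for lung minus blood, adjusted p = 2.68e-09) also stands on the lung cell marker list. Cd177, a neutrophil partner of Mac-1, was high in spleen, averaging 1200 and 657 in GF and SPF spleen against 352 and 224 in GF and SPF blood (spleen minus blood 1.63, adjusted p = 2.75e-07) and 245 and 189 in GF and SPF lung (lung minus spleen -2.04, adjusted p = 1.77e-11).

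Ligands of these receptors were also found in the libraries. Of 10 tested 3 were higher and 3 lower in lung than in blood (24.6% of all genes called), and 3 were higher and 1 lower in lung than in spleen (17.3%). Cxcl2, a ligand of CXCR2, averaged 1117 and 1398 in GF and SPF lung, 1.69 and 0 in GF and SPF spleen, and 1.17 and 1.07 in GF and SPF blood (lung minus blood 8.67, SE 0.36, adjusted p = 1.43e-17). Ppbp, a platelet chemokine that is cut to a CXCR2 ligand, averaged 6.41 and 6.42 in GF and SPF lung against 238 and 209 in GF and SPF blood (-4.90, adjusted p = 8.01e-10), and it stands on the erythroid and platelet marker list. Camp, whose product is cut to a peptide that binds FPR2, averaged 1063 and 724 in GF and SPF spleen against 47.7 and 9.17 in GF and SPF blood (spleen minus blood 5.36, adjusted p = 0.00114).

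Across the 16 libraries, the genes with the most similar pattern were sought by Spearman's rank correlation among 1424 genes with a mean of at least 100 normalised counts. The libraries share tissue, status and depth, so these values describe the pattern. For Cxcr4 they were Atf3 (0.932), Plaur (0.921) and Nfkbid (0.918). For Cxcr2 they were Tmem14c (0.941), Slfn2 (0.935) and Actb (0.932), and for Selplg they were Ikbkap (0.971), Slfn2 (0.971) and Tsc22d3 (0.968). Icam1 was most like Calcrl (0.915), Cd74 (0.900) and mt-Nd5 (0.900). C5ar1 was most like Actg1 (0.944), Srgn (0.929) and Litaf (0.929), and Fpr1 like D8Ertd738e (0.918), C5ar1 (0.871) and Srgn (0.859). Fpr2 was most like Rps9 (0.929), Tmsb4x (0.912) and Card19 (0.909). Itgam was most like Ppp1r15b (0.926), Syk (0.906) and Itgal (0.897), the last being the alpha chain of another beta-2 integrin, whereas Itgb2 was most like Relt (0.874), Il16 (0.868) and Man2b1 (0.862). Among the 9 genes, this correlation was 0.918 between Cxcr2 and Selplg, 0.871 between Fpr1 and C5ar1, 0.826 between Cxcr4 and C5ar1, -0.882 between Cxcr2 and Icam1, and -0.791 between Itgam and Fpr2.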

How the data were processed

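Neutrophil RNA of 16 sorted samples was amplified with a low-input kit and sequenced as paired 61 nt reads, per the labels' protocols. The submitters' processing notes name CASAVA, RSEM 1.3.1, limma and the assembly mm10, while the annotation and the scaling between libraries are not given in the sources used here. The signal the authors deposited behaves as (expected count + 0.5) multiplied by 1 factor per library. The normalised count leaves that offset out, and dividing by the factor gave back reads. Depending on the library, 91.4% to 98.7% of low values came out within 0.05 of a whole number, and 1 read was worth 0.392 to 7.62 units, so shallow libraries measured low genes coarsely. All columns were matched to a sample.

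The 8299 genes that reached 10 in 2 or more libraries were fitted on log2(value + 1) in limma 3.58.1 (R 4.3.3). The model held 6 group means over 16 libraries, with a prior that was trended and robust. Tests were two-sided, and p-values were adjusted by the Benjamini-Hochberg method separately for each of 16 comparisons. No batch is given in the labels. The fit was also run on simulated counts with a fixed dispersion and changes set in lung only. That setting is simpler than these data, and the run is not used as support here. GENCODE M21 (GRCm38) gave coordinates for 10275 of 10296 identifiers, and RefSeq gave the promoters. The 9 genes and the lists were chosen with earlier results of these data known. Besides the 9 genes, the text draws on up to 2 genes higher and 2 lower of smallest p per list and averaged tissue comparison (group mean at least 10), the summed level and up to 2 leading genes of a marker list, and the 3 genes of highest rank correlation per gene. A gene that this rule names is not reported here. Predicted models and pseudogenes were not named, except Gm49368 and Gm47079. These and the marker Cldn5, which fall outside the rule, were chosen after their values were seen. Alternatives were other pseudocounts, filters, scalings, priors, weights, blocks and samples, and the sum of both Itgam lines, which was chosen after seeing the data.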

Additional observations from a re-analysis of the deposited data

How the results depend on the processing

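Of 39 results for single genes 12 kept their direction and their side of the threshold under all alternatives. Counts of called genes out of 9, where they moved over 1.5 times, were as follows. With neither a trended nor a robust prior, lung minus blood gave 4 (7 in the report), lung minus spleen 4 (7) and spleen minus blood 0 (4). By status this prior gave 3 for lung minus blood in GF (5), 1 and 2 for lung minus spleen in GF and SPF (2 and 4), 0 for spleen minus blood in SPF (6), and 0 for GF minus SPF in blood and averaged (1 each). Quantile normalization gave 2 for spleen minus blood, averaged and in SPF, 5 for lung minus spleen in GF, and 0 for GF minus SPF averaged. Median-ratio rescaling gave 5 for lung minus spleen in GF, and TMM rescaling 0 for GF minus SPF averaged. Only the groups compared gave 2 for spleen minus blood (1 in SPF), 4 for lung minus spleen in GF and 2 for GF minus SPF in blood, where a minimum of 100 gave 2, array weights 2 and voom weights 4. Without the libraries under 250000 reads, spleen minus blood gave 2 (1 in SPF), lung minus spleen in GF 1 and GF minus SPF averaged 0.

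Leaving out 1 library at a time, the counts ranged from 5 to 7 for lung minus blood, 0 to 5 for spleen minus blood and 6 to 7 for lung minus spleen. In GF they ranged from 3 to 5, 0 to 0 and 1 to 5, and in SPF from 3 to 5, 0 to 6 and 3 to 5. For GF minus SPF they ranged from 0 to 2 in blood and averaged, and for the interaction of spleen minus blood from 0 to 1.

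Whether equal replicate numbers mark the same mouse is not given in the labels. Over 9 pairs of the same number and status in different tissues, deviations from group means correlated at -0.128 to 0.068. With groups this small and libraries of such unequal depth, these correlations cannot decide whether samples were paired. With a replicate block by number, spleen minus blood gave 1 averaged and 2 in SPF, and lung minus spleen in GF gave 4. With the block within GF or SPF, lung minus blood gave 4, spleen minus blood 1 (0 in SPF) and lung minus spleen in GF 1. Under the block by number and within status Cxcr4 in spleen minus blood (-0.25) was 0.0088 and 0.0163, and Fpr1 in lung minus blood (0.02) was -0.0066 by number. Blocks changed a call or direction in 9 of the 39 results.

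Some directions turned, those of the called spleen minus blood results of Cxcr2 (-0.61), C5ar1 (-0.41) and Selplg (-0.43) among them. Fpr1 in lung minus blood was -0.11 with TMM, -0.0091 with voom weights and -0.0568 without the shallow libraries, and from -0.0771 to 0.13 leaving out 1 library. In spleen minus blood, quantile normalization gave 0.0316 for Cxcr2, 0.0307 for C5ar1 and 0.24 for Selplg, Itgb2 (0.01) was -0.11 with TMM, -0.0137 without the shallow libraries and -0.0132 to 0.0411 leaving out 1 library, but was called higher in spleen with quantile normalization (0.40, adjusted p = 0.0422), and Cxcr4 was 0.0758 without the shallow libraries. Fpr2 in lung minus spleen (-0.05) ranged from -0.14 to 0.0413 leaving out 1 library. In GF minus SPF blood, Selplg (-0.10) was 0.0559 with quantile normalization, 0.10 without the shallow libraries and -0.30 to 0.10 leaving out 1 library, and C5ar1 (-0.21) was 0.12 with quantile normalization. The cause was not tested. The planned count test on recovered reads was not run, since too few low values were whole. Blood groups had 2 libraries each, and genes with under 10 reads in shallow libraries limit Icam1 and Cxcr4.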
